A study of Mus musculus with 6 samples.

Results

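The cell cycle and proliferation genes described here are 36 genes chosen by name for their known parts in DNA replication and cell division, out of 36778 genes read by the arrays. They were found through the gene name that the array files give each probe, and 68 probes read them. The kidneys came from male mice, which the labels give as strain C57BL/6J for both genotypes, 8 weeks old and fasted for 20 h before the left kidney was removed. There were 3 WT mice (replicates 2, 3, and 4) and 3 Selenbp1-KO mice (replicates 1, 2, and 3), the latter lacking selenium-binding protein 1, a protein induced by dioxin. All 6 mice were fasted, none was treated with dioxin, and no fed mice were put on these arrays. The WT mice came from a commercial supplier and were not described as littermates of the Selenbp1-KO mice, so origin and genotype cannot be told apart. Each kidney was measured whole on its own one-color array, so fewer dividing cells and less RNA per dividing cell cannot be told apart. The study compared the genotypes to learn which kidney genes depend on Selenbp1, and the comparison below asks this for cell division.

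A cell that commits to division passes from G1 into S phase, when the MCM helicase opens the DNA and enzymes such as ribonucleotide reductase and thymidylate synthase supply nucleotides. In G2 and mitosis, cyclin A and cyclin B activate Cdk1, and the Aurora and Polo kinases, the spindle checkpoint, kinesins, and centromere proteins then separate the chromosomes. Expression of these genes follows the cell cycle. The E2F factors act on many replication genes, and the MuvB complex with B-Myb and Foxm1 acts on many mitotic genes. Most cells of an adult kidney are out of the cycle, although tubule cells can re-enter it after injury.

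Promoters of these genes are shown because they carry the short sequence words through which the genes are known to be timed. RefSeq promoter windows of build GRCm38.p6, from 250 bases before to 50 bases after each start site, were found for 30 of the 36 genes, in 32 windows. The genes without a window were Foxm1, Mcm4, Ccna2, Aurkb, Kif20a, and Tpx2. Windows were searched on both strands for TTTGAA, the core of the cell cycle homology element (CHR) to which MuvB binds, for CCAAT, the box of the factor NF-Y, and for the E2F words TTTCCCGC, TTTGGCGC, TTTCGCGC, and TTTGCCGC. In these windows no TTTGAA match overlapped a match of another word. In the stretches below, written 5′ to 3′ on the strand of the gene, capitals mark these words on either strand.
Ccnb2: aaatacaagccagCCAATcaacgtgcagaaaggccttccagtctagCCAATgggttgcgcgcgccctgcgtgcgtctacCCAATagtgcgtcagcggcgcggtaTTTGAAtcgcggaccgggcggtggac
Cdk1: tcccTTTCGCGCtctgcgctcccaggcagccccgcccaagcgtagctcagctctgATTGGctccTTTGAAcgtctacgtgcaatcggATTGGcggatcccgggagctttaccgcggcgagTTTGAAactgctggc
Top2a: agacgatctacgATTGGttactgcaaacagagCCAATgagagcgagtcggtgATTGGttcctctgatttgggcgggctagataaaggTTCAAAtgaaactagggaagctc
Aurka: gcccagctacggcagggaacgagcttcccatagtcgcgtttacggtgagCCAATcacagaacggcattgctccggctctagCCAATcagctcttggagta
Mcm6: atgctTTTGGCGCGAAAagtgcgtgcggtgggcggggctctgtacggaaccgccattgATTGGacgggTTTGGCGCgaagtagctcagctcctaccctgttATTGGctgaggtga
All 5 genes lie on the minus strand. Ccnb2 (chr9:70421525-70421654) is shown as a mitotic cyclin with 3 CCAAT boxes, each 33 bases from the next, followed by a TTTGAA that begins at base 5 of the transcript. Cdk1 (chr10:69352913-69353047), the mitotic kinase itself, carried an E2F word, 2 CCAAT boxes, and 2 TTTGAA words in its stretch. Top2a (chr11:99024190-99024299), the topoisomerase that untangles replicated chromosomes, carried 3 CCAAT boxes and 1 TTTGAA in its stretch, the TTTGAA on the opposite strand. Upstream of the stretch, its window held a TTTGAA on the strand of the gene at position −179 and further CCAAT boxes. Aurka (chr2:172370571-172370670) is shown as the one gene of the 36 that passed the test between genotypes. Its 2 CCAAT boxes began at positions −51 and −19 from the start, and a TTTGAA outside the stretch began at base 33 of the transcript. Mcm6 (chr1:128359706-128359820), a helicase subunit, carried 3 E2F words, 2 of them overlapping on opposite strands, and no TTTGAA.

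The word TTTGAA was present in the windows of 17 of the 30 genes, against 20.2% of all 27025 genes with a window. CCAAT was present in 25 of the 30, against 41.1% of all genes, and an E2F word in 5 of the 30, against 2.61%. The E2F words were in 4 of the 5 helicase genes with a window (Mcm3, Mcm5, Mcm6, and Mcm7) and in Cdk1. TTTGAA was in 1 of those 5 helicase genes, in 4 of 5 cyclin and kinase genes, and in 4 of 5 checkpoint genes. The 16 genes that held both TTTGAA and CCAAT included Mki67, Top2a, Ccnb2, Cdk1, Plk1, Aurka, and Cenpa. These are matches of letters, and whether any factor was bound in these kidneys was not measured.

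**Figure D1:**
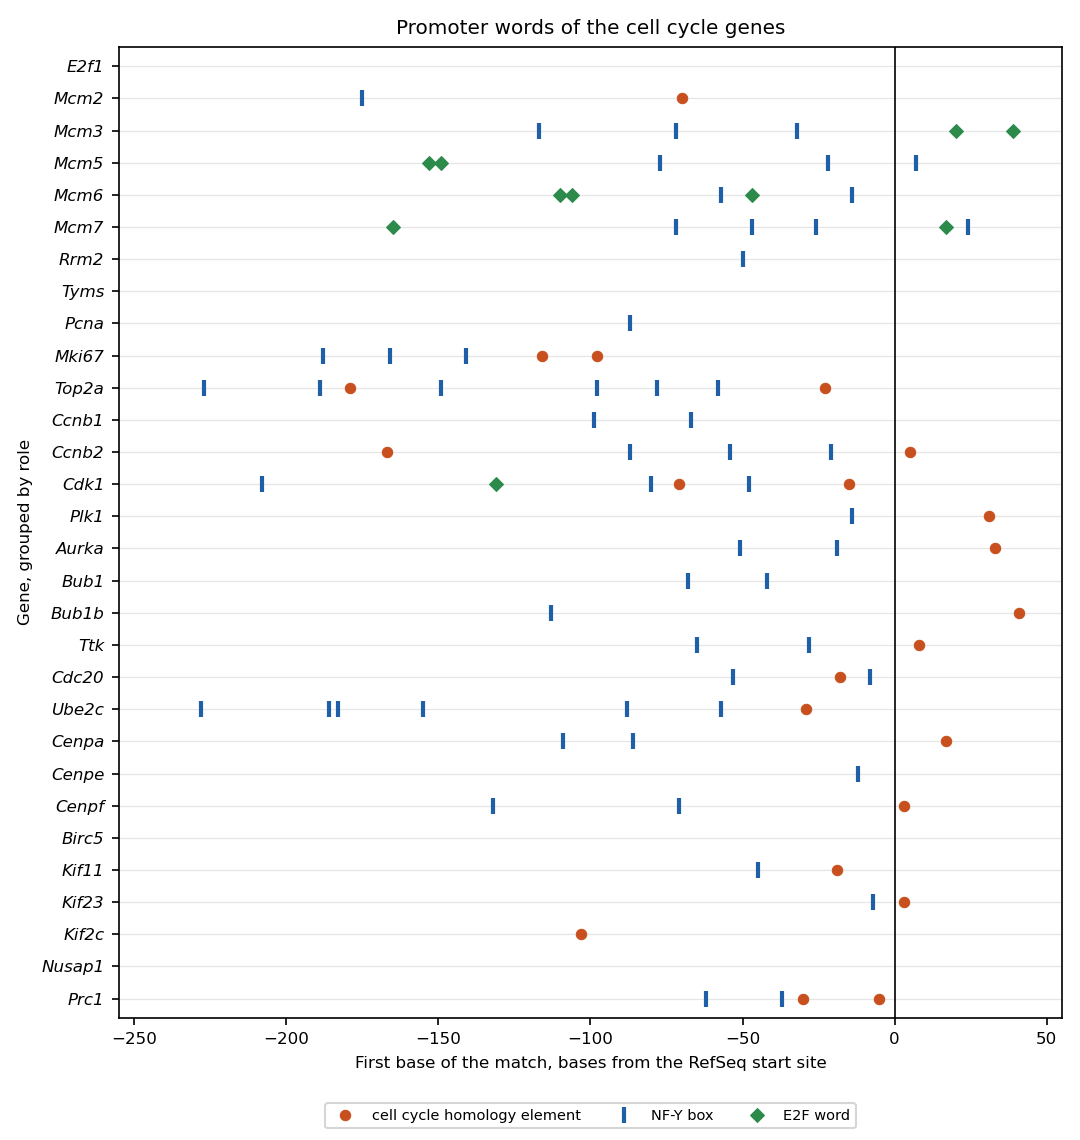
Positions of the promoter words in the 30 genes with a RefSeq window. The horizontal axis gives the first base of each match, in bases from the start site, and each row is a gene, with genes of the same role together. Orange circles are TTTGAA, blue bars CCAAT boxes (NF-Y box), and green diamonds E2F words, which lie in Mcm genes and Cdk1. Most TTTGAA matches lie downstream of a CCAAT box in the same row.

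The 6 arrays lie on 1 slide, with WT replicates 2 and 3 in slide row 1 and WT replicate 4 and all Selenbp1-KO replicates in slide row 2. The 75th percentile of the signal ranged from 477 to 751 between arrays, from 51.8% to 55.5% of the spots were well above background, and none was saturated. The targeted gene Selenbp1 had a log2 level of 7.02 to 7.07 on the WT arrays and 3.98 to 4.13 on the Selenbp1-KO arrays, so each label had the matching signal. All 8 proximal tubule markers, such as Slc34a1 and Lrp2, were well above background on all 6 arrays, as were the 4 markers of distal nephron and collecting duct.

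Levels are given as log2 signal relative to the 75th percentile of the array, so that 0 is the level of that percentile. Each gene is represented by its brightest probe, and levels of different probes are not compared with each other. Of the 36 genes, 21 were well above background on all 6 arrays, 8 on some of them, and 7 on none. Among the 21 were all 6 Mcm genes, Pcna, Tyms, Rrm2, Mki67, Ccnb2, Aurka, Plk1, Cdc20, and Cenpa. The 7 on no array were the kinases Aurkb, Bub1, and Ttk, the kinesins Kif11 and Kif2c, the kinetochore protein Cenpf, and the spindle factor Tpx2. For these 7 a level is that of the background, not of the transcript.

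Between genotypes, 1 of the 36 genes passed the criterion of an unadjusted p under 0.05 (limma, two-sided), and it was lower in Selenbp1-KO kidneys. This criterion is the one of the study's methods. By it, 7.99% of all genes passed, 6.87% higher and 1.13% lower in Selenbp1-KO, and 7.98% of all probes. The share among the 36 genes, 2.78%, did not exceed this background. The lowest adjusted p among them was 0.279, so none passed after Benjamini–Hochberg adjustment. Of the 36, 14 had a higher and 22 a lower mean in Selenbp1-KO. Their median difference was −0.09, while that of all genes was 0.13. By detection, the 15739 genes well above background on no array had a median of 0.38, and the 18276 genes well above background on all 6 arrays had a median of 0.02.

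Among the 21 genes well above background on all 6 arrays, 6 were higher and 15 lower, with differences from −0.43 to 0.57 on the log2 scale and a median of −0.10, and 1 passed the criterion, against 5.48% of all genes so measured. Values of the 2 genotypes did not overlap for 3 of the 36 genes (Aurka, Mcm4, and Kif2c), against 14.1% of all genes. They did not overlap for 2 of the 21, against 19.3% of genes on all 6 arrays. The 7 genes on no array had a median difference of 0.37, near the 0.38 of all genes on no array. The median of the 7 genes was 0.36 with median scaling and 0.25 after normexp correction, against 0.36 and 0.26 for all genes on no array. After quantile normalization it was −0.0042, against 0.0087, and in the authors' value table also −0.0042, against 0.0087. The 7 genes thus stayed near other genes on no array under each of these scalings.

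**Figure D2:**
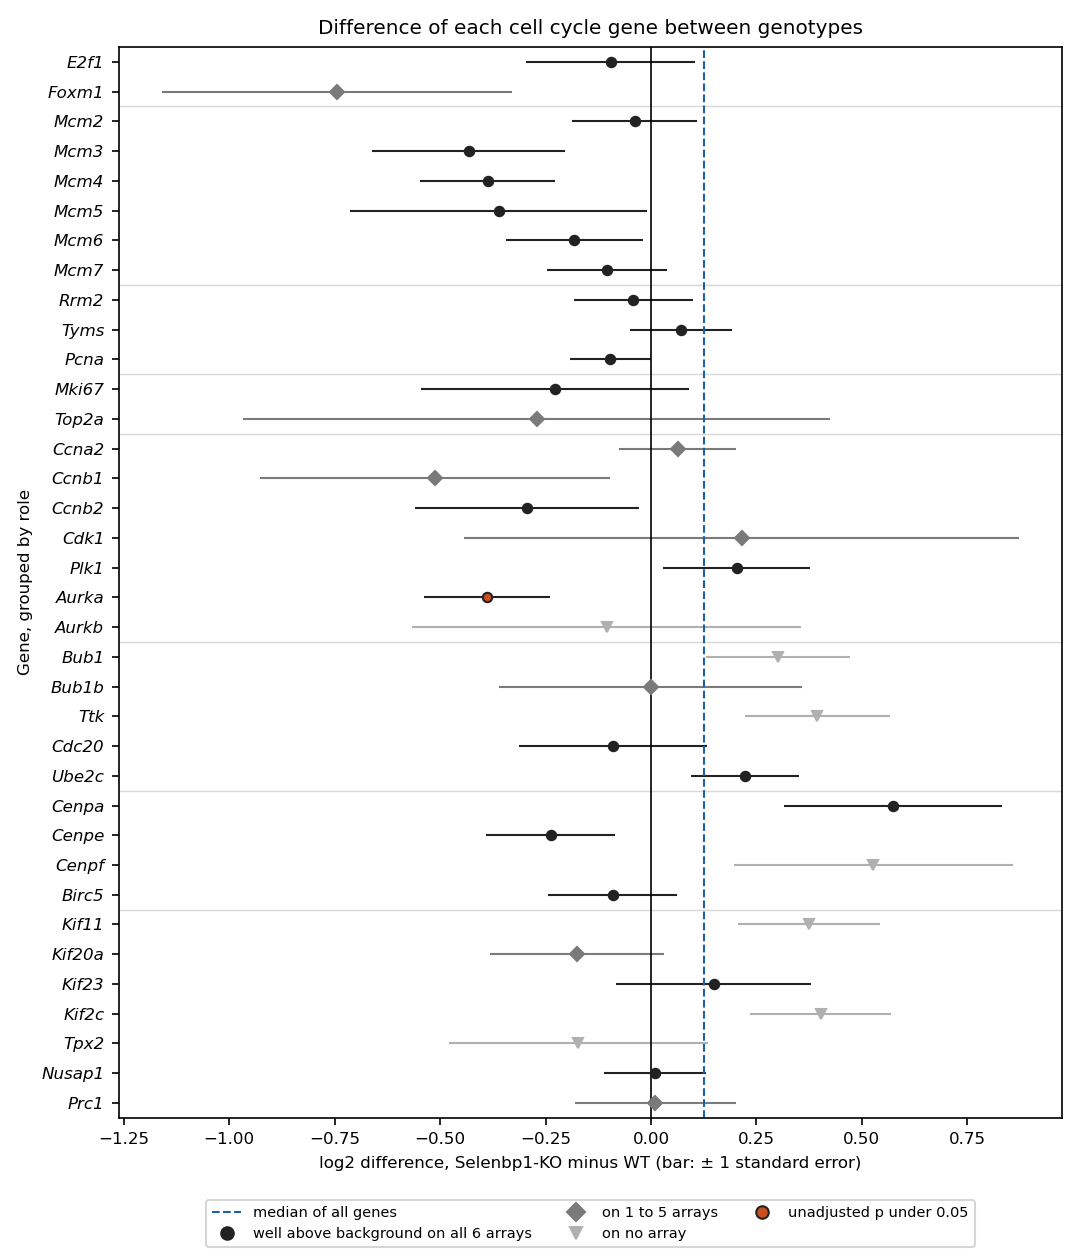
Log2 difference of each of the 36 genes, Selenbp1-KO minus WT (horizontal axis), with 1 standard error on either side from limma. Circles, diamonds, and triangles are genes well above background on all 6, some, or none of the arrays, and the dashed line is the median of all genes, 0.13. Aurka, filled in orange at −0.39, is the gene with an unadjusted p under 0.05, and the 6 Mcm genes lie left of 0.

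The 6 subunits of the replicative helicase, which is loaded at origins in G1 and unwinds DNA in S phase, all had a lower mean in Selenbp1-KO kidneys, with a median difference of −0.27. None of the 6 passed the criterion. The shared direction was lost without WT replicate 2, when Mcm2, Mcm5, and Mcm7 were higher by 0.019, 0.035, and 0.029. With slide row as a block the same 3 genes were higher, by 0.24, 0.19, and 0.0050. The loss did not rest on WT replicate 2 alone. Dropping WT replicate 3 made Mcm2 higher by 0.042, and dropping Selenbp1-KO replicate 2 made it higher by 0.0026. Averaging all probes of each gene made Mcm7 higher by 0.13. Mcm4 had levels of 0.89, 0.52, and 0.50 in WT replicates 2, 3, and 4 and of 0.17, 0.46, and 0.13 in Selenbp1-KO replicates 1, 2, and 3. The genotypes did not overlap, but WT replicates 3 and 4 lay close to Selenbp1-KO replicate 2. The difference of Mcm4 was −0.39 (standard error 0.16), with an unadjusted p of 0.0516 and an adjusted p of 0.279 from limma. Mcm4 passed the criterion in 8 of 19 other ways of processing, with differences from −0.49 to −0.25 over all of them.

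Mcm3 had levels of −0.32, −1.11, and −0.94 in WT and of −1.35, −1.04, and −1.27 in Selenbp1-KO kidneys. WT replicate 2 stood clear of the Selenbp1-KO values, WT replicate 4 lay just above them, and WT replicate 3 lay among them. Mcm3 differed by −0.43 (standard error 0.23, adjusted p = 0.327, limma), and by −0.20 without WT replicate 2. Mcm5 was also highest in WT replicate 2, with levels of −1.04, −2.07, and −2.38 in WT and of −2.29, −1.97, and −2.31 in Selenbp1-KO. Its lowest level was that of WT replicate 4. Its difference was −0.36 (standard error 0.35). Mcm6, Mcm7, and Mcm2 differed by −0.18, −0.10, and −0.04. A second probe of Mcm6 gave −0.37, and 2 further probes of Mcm3 well above background on all arrays gave −0.45 and −0.35. The remaining Mcm3 probe, well above background on 5 arrays, gave 0.048, and a second Mcm7 probe, on 3 arrays, gave 0.36, so the probes of these genes did not share a sign.

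Of the transcription factors, E2f1, an activator of S phase genes, differed by −0.10 (standard error 0.20), with overlapping genotypes. Foxm1 is an activator of mitotic genes. Its probe was well above background on WT replicate 4 alone, where the level was −4.58, and the other 5 levels lay between −6.44 and −5.21. No fold can be given for such a gene (adjusted p = 0.358 from limma), and the other 2 Foxm1 probes were well above background on no array.

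Enzymes of nucleotide supply and the replication clamp varied little. Pcna, the clamp that holds DNA polymerase on its template, had levels of 2.84, 2.88, and 2.86 in WT and of 2.73, 2.71, and 2.85 in Selenbp1-KO kidneys. Selenbp1-KO replicate 3 lay among the WT values, and the difference was −0.10 (standard error 0.10, adjusted p = 0.654 from limma). Rrm2, the regulated subunit of ribonucleotide reductase, differed by −0.04 (standard error 0.14). Tyms, thymidylate synthase, differed by 0.07 (standard error 0.12), and its other 2 probes by 0.04 and −0.19, so the 3 probes did not share a sign.

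Mki67 encodes the Ki-67 protein that coats mitotic chromosomes and is the usual histological mark of cycling cells. Its levels were −3.20, −3.72, and −4.15 in WT and −4.31, −4.00, and −3.44 in Selenbp1-KO kidneys. The highest and lowest of the 6 mice were 1.11 apart, which is more than the difference between genotypes of −0.23 (standard error 0.32, adjusted p = 0.756 from limma). Top2a had levels of −4.40, −5.74, and −6.57 in WT and of −6.88, −5.70, and −4.93 in Selenbp1-KO, and it was well above background on WT replicate 2 alone. The Top2a values differed by −0.27 (standard error 0.70), and no fold can be given for such a gene.

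Aurka, the centrosomal kinase that builds the spindle poles, was the gene that passed. Its levels were −2.13, −2.30, and −2.53 in WT and −2.61, −2.89, and −2.63 in Selenbp1-KO kidneys. All 3 Selenbp1-KO mice lay below all WT mice, with WT replicate 4 next to Selenbp1-KO replicate 1. The difference was −0.39 (standard error 0.15), a level 0.76 times that of WT, with an unadjusted p of 0.0395 and an adjusted p of 0.279 from limma. Aurka was read by 1 probe (NM_011497, chromosome 2 of mm9, 172181734 to 172181793), whose exon was not assigned here. Its difference was negative in all 19 other ways of processing, and it stayed past the criterion in 8 of them. It did not pass with quantile normalization, median scaling, normexp correction, or the authors' table. Within slide row 2, WT replicate 4 against the 3 Selenbp1-KO mice, the difference was −0.18, which rests on a lone WT mouse. Leaving out any array other than WT replicate 4 took Aurka over the criterion, with unadjusted p from 0.0581 to 0.126 from limma.

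The other cyclins and kinases did not pass. Ccnb2, a mitotic cyclin, had levels of −2.66, −3.09, and −3.55 in WT and of −3.47, −3.65, and −3.07 in Selenbp1-KO kidneys, with WT replicate 2 highest and the rest interleaved. Its difference was −0.30 (standard error 0.27). Cdk1, the kinase it activates, was well above background on WT replicate 2 alone, and Ccnb1 on WT replicates 2 and 3 and Selenbp1-KO replicate 3. Plk1, the Polo kinase of mitotic entry, differed by 0.20 (standard error 0.17), and Ccna2, the cyclin of S phase and G2, by 0.06 (standard error 0.14). Aurkb, the kinase of the chromosomal passenger complex, was at background on all arrays.

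Genes of the spindle checkpoint and the anaphase-promoting complex also overlapped between genotypes. Cdc20, the activator that starts anaphase, differed by −0.09 (standard error 0.22) and its second probe by −0.03. Ube2c, the ubiquitin-conjugating enzyme of that complex, had levels of −3.64, −3.79, and −3.52 in WT and of −3.56, −3.27, and −3.45 in Selenbp1-KO, a difference of 0.22 (standard error 0.13, adjusted p = 0.378 from limma). Bub1b, which holds Cdc20 in check, was well above background on WT replicate 2 alone.

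The largest positive difference of the 21 genes on all 6 arrays belonged to Cenpa, the histone H3 variant that marks centromeres. Its levels were −3.58, −3.93, and −4.50 in WT and −3.67, −3.20, and −3.43 in Selenbp1-KO kidneys. WT replicate 2 lay among the Selenbp1-KO values, and the other WT mice lay below them. The difference was 0.57 (standard error 0.26), with an unadjusted p of 0.0681 and an adjusted p of 0.279 from limma. Within slide row 2, where the WT arm is replicate 4 alone, the lowest of the 6 Cenpa values, it was 1.07. Without WT replicate 4 it was 0.33 (unadjusted p = 0.15 from limma). Cenpe, the kinetochore kinesin, differed by −0.24 (standard error 0.15), and Birc5, survivin of the passenger complex, by −0.09 (standard error 0.15). Of the spindle motors and microtubule binders, Kif23 of the central spindle differed by 0.15 (standard error 0.23) and the microtubule bundler Nusap1 by 0.01 (standard error 0.12). The other Kif23 probes, among them all those with a RefSeq accession, were well above background on no array. Prc1, which bundles the midzone, differed by 0.01 (standard error 0.19), and Kif20a was well above background on WT replicates 3 and 4 alone.

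Over the 36 genes the median SD was 0.28 in WT and 0.19 in Selenbp1-KO kidneys, against 0.26 and 0.16 for all genes. Among the 21 on all 6 arrays, the median SD was 0.23 in WT and 0.18 in Selenbp1-KO kidneys, against 0.12 and 0.10 for all genes on all 6 arrays. The median span from lowest to highest array was 0.60 for the 21 genes and 0.35 for all such genes, which were not matched to the 21 on level. WT replicate 2 was the highest array for 11 of the 21, including E2f1, Mki67, Ccnb2, Aurka, Cdc20, and Cenpe, while it was the highest for 2269 of the 18276 genes. The median of level minus gene mean over the 21 was 0.25 on WT replicate 2, 0.08 on Selenbp1-KO replicate 3, and between −0.09 and −0.04 on the other 4 arrays. WT replicate 2 was the highest for 4 of the 6 Mcm genes. It was also the one array on which Cdk1, Top2a, and Bub1b were well above background. Under each of 5 scalings WT replicate 2 remained the highest array, for 10 to 12 of the 21 genes.

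**Figure D3:**
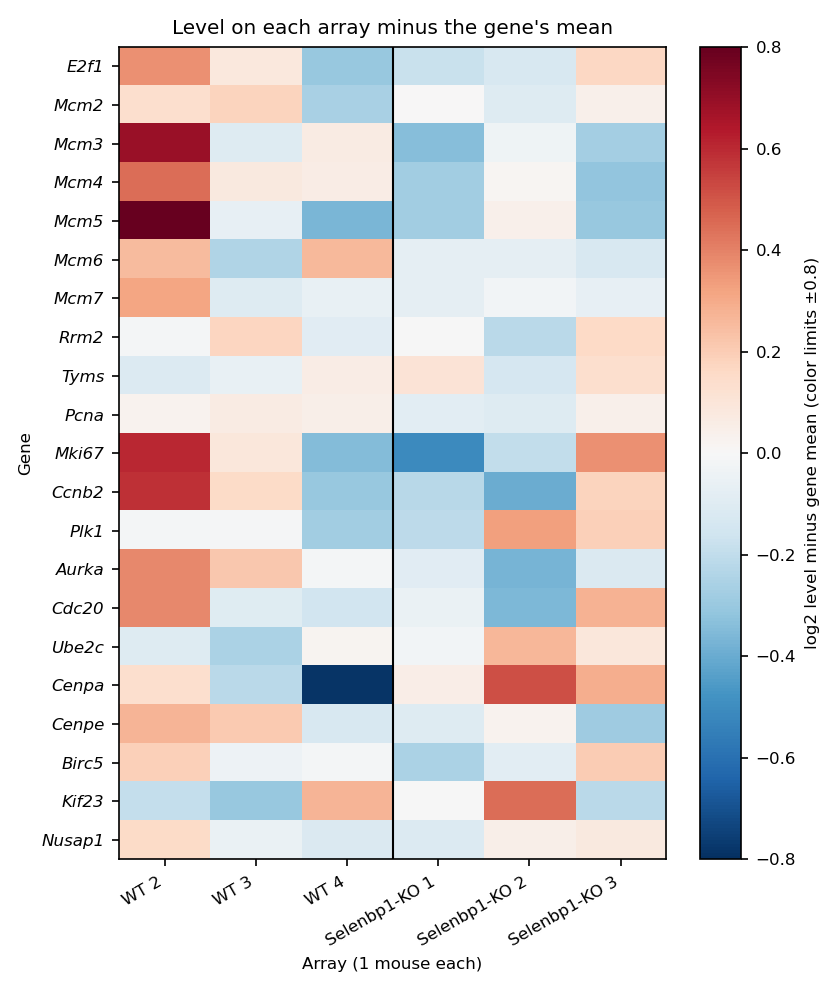
Log2 level of each of the 21 genes on each array minus the mean of that gene over the 6 arrays, in color, with WT arrays left and Selenbp1-KO arrays right of the line. Red is above and blue below the gene's mean, and the colors end at ±0.8. WT replicate 2 is the highest array for 11 of the 21 genes.

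Without WT replicate 2, the median difference of the 36 genes was 0.032 in place of −0.09, and 22 genes were higher and 14 lower. Then 1 gene of the 36 passed the criterion, against 3.52% of all genes, and it was Cenpa, with a difference of 0.79. With the slide row as a block the median was 0.09, and Cenpa, Foxm1, and Kif20a passed in place of Aurka. Foxm1 and Kif20a were well above background on no Selenbp1-KO array. Slide row 1 holds WT mice alone, so the block compares WT replicate 4 with the Selenbp1-KO mice.

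**Figure D4:**
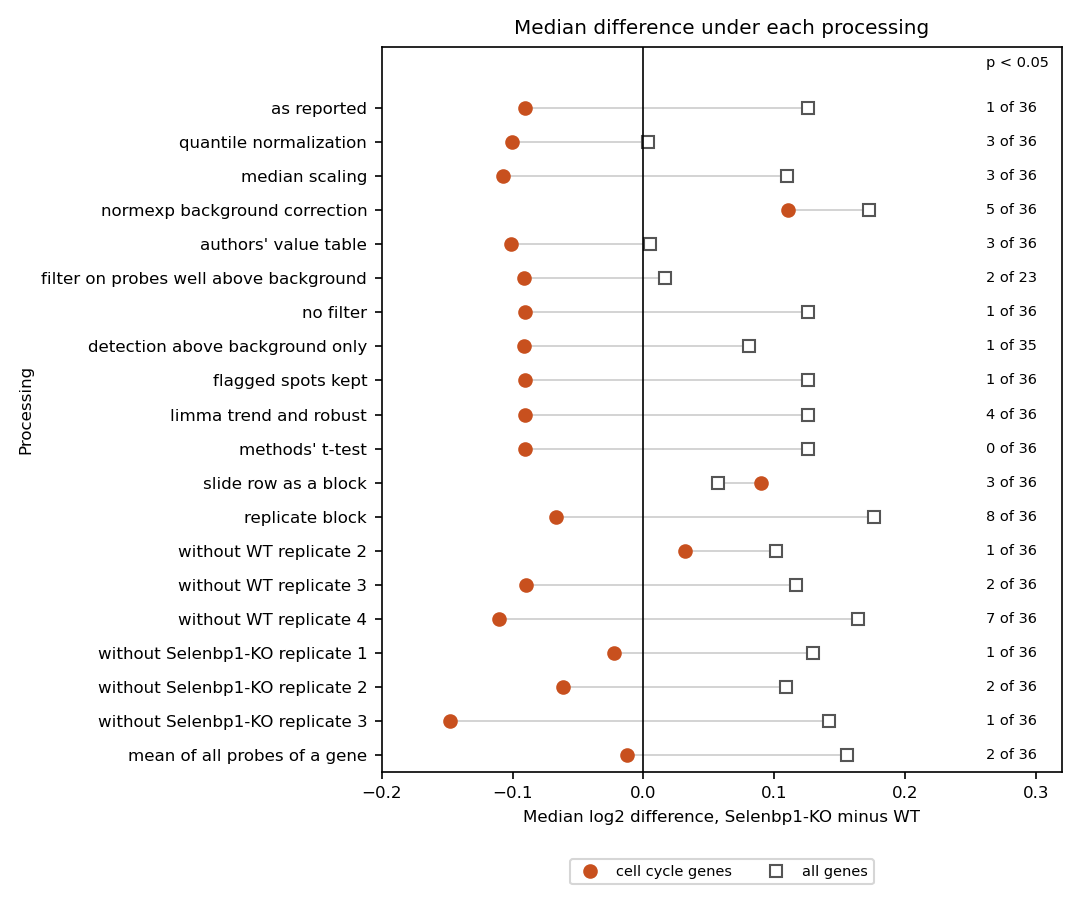
Median log2 difference, Selenbp1-KO minus WT (horizontal axis), of the 36 cell cycle genes (orange circles) and of all genes (open squares) under each way of processing (rows). Numbers at the right give how many of the tested cell cycle genes had an unadjusted p under 0.05. The median of the 36 genes lies above 0 after normexp background correction, with slide row as a block, and without WT replicate 2, and below 0 in the other rows.

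Of 118 further cell cycle genes, listed by role beside the 36, 5 passed the criterion, 2 higher and 3 lower in Selenbp1-KO kidneys, against 7.99% of all genes. Their median difference was −0.05. The higher gene with a measured level was Cdkn1a, which encodes p21, the inhibitor that stops cyclin-dependent kinases in arrest. Its levels were −0.50, −0.22, and −0.88 in WT and −0.16, 0.17, and 0.13 in Selenbp1-KO kidneys, with no overlap. For Cdkn1a the log2 change was 0.58 (standard error 0.20), and limma gave an unadjusted p of 0.0256 and an adjusted p of 0.279. It stayed past the criterion in 13 of 19 other ways of processing and positive in all, from 0.31 to 0.92. Without WT replicates 2 or 4 or Selenbp1-KO replicates 2 or 3 the unadjusted p was 0.0519 to 0.0768. The other 2 Cdkn1a probes were well above background on no array. The other 8 inhibitors did not pass. The largest difference among them was that of Cdkn2b, −0.47 (standard error 0.47), well above background on all 6 arrays. Others were Cdkn1b (−0.06), Cdkn1c (0.11), Cdkn2c (0.20), and Wee1 (−0.20).

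Fen1, the nuclease that trims Okazaki fragments, had levels of 0.92, 0.67, and 0.78 in WT and of 0.47, 0.39, and 0.56 in Selenbp1-KO kidneys, again apart. Fen1 differed by −0.32 (standard error 0.11, adjusted p = 0.279, limma), 1 of 16 genes of DNA synthesis to pass, and it passed in 13 of 19 other ways of processing. Lin9, a subunit of the MuvB complex, had levels of −1.53, −1.71, and −1.77 in WT and of −1.93, −1.99, and −1.96 in Selenbp1-KO. Its difference was −0.29 (standard error 0.11), and a second probe well above background on all arrays gave −0.10. It was 1 of 15 pocket protein, E2F, and DREAM genes to pass, and it passed in 9 of 19 other ways of processing. No fold can be given for Cenph, a kinetochore protein, because its probe was well above background on 2 WT arrays and on no Selenbp1-KO array. Its values were −4.80, −4.81, and −5.06 in WT and −6.21, −6.72, and −6.84 in Selenbp1-KO (adjusted p = 0.279 from limma). The Selenbp1-KO values were those of background, so the difference of −1.70 is not that of the transcript. That difference was 0.058 after normexp background correction. Cenpm, a further kinetochore protein, passed at levels well above background on no array, so no fold is given.

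No gene passed among the 8 G1 cyclins and kinases, the 14 genes of origin licensing and firing, the 20 of spindle, kinesins, and cytokinesis, or the 20 of condensin and mitotic entry and exit. The largest differences of these lists were read for Ccne2, Cdt1, Ckap2l, and Cdc25c, but Ccne2, Ckap2l, and Cdc25c were well above background on no array, so their rank is one of background values. Cdt1, the licensing factor that loads the helicase, was well above background on all 6 arrays and differed by −0.41 (standard error 0.27). Cdt1 was highest in WT replicate 2, with levels of 1.06, 0.29, and 0.07 in WT and of −0.11, 0.06, and 0.23 in Selenbp1-KO kidneys. WT replicate 2 was also the highest array for 41 of the 87 listed genes on all 6 arrays.

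Markers of cell types other than tubule cells were read on the same arrays, with the same criterion. A marker counts as higher here if it passed with a higher mean in Selenbp1-KO, as did 6.87% of all genes. Macrophage markers were higher in Selenbp1-KO for 6 of 8 genes, with a median difference of 0.54, and their summed log2 level was 3.95 to 4.25 on WT and 4.42 to 4.54 on Selenbp1-KO arrays. Markers of red blood cells and their precursors were higher for 4 of 7 genes. Their summed levels, mostly from Hba-a1, were 8.01 to 8.43 on WT and 8.50 to 9.07 on Selenbp1-KO arrays. Among the 4, Ahsp was well above background on no array. Klf1, a precursor marker well above background on all 6 arrays, differed by −0.42 without passing. Fibroblast markers were higher for 4 of 6 genes, with summed levels of 4.29 to 4.69 on WT and 4.995 to 5.37 on Selenbp1-KO arrays. Lymphocyte markers were higher for 1 of 7 genes and injured tubule markers for 1 of 6 (Vcam1). None of the proximal tubule, distal nephron, or endothelial markers passed. The summed level of the injured tubule markers was instead lower in Selenbp1-KO, with 6.05 to 6.17 on WT and 5.82 to 5.99 on Selenbp1-KO arrays. Spp1, with the largest part in that sum, differed by −0.18 without passing. Havcr1 and Lcn2 also had a lower mean in Selenbp1-KO, while Krt20, Sox9, and Vcam1 had a higher one. Havcr1, well above background on 3 arrays, was highest on WT replicate 2, at −3.19, as was Spp1. Lcn2, Krt20, Sox9, and Vcam1 were highest on Selenbp1-KO replicate 2. The part of all these markers in the levels of the cell cycle genes was not tested.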

How the data were processed

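Kidney RNA of 3 WT and 3 Selenbp1-KO mice was hybridized with one dye (Cy3) to 6 Agilent arrays. The authors deposited the output of the scanner software Feature Extraction for each array. Its header gives version 10.7.1.1, while the submitters' processing notes give 9.5.1.1. The deposited intensities are on a linear scale, after subtraction of background and spatial detrending, with surrogate values at dim spots, and no scaling between arrays. Per the file headers, each spot also has a p-value against its background. A further deposited table holds intensities of the same arrays, made in a way not given in the sources used here. Its columns share their quartiles, so it was taken to be quantile normalized, and it served as an alternative. Labels and methods name different RNA extraction kits and array formats from each other and from the files, and each array holds 62976 spots.

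From the processed intensities, log2 values minus the log2 75th percentile of the array over the 59305 non-control spots were computed. Spots flagged as outliers were left out, 44 to 73 on an array, and repeated spots were averaged per probe. Testing required a detection p under 0.05 on 1 or more arrays, which kept 56097 of 56605 probes and 67 of the 68 probes of the cell cycle genes. Genotypes were compared with limma (version 3.58.1, two-sided) in R (version 4.3.3), at the methods' criterion of an unadjusted p under 0.05, with Benjamini–Hochberg adjusted values over all probes beside it. The comparison was tested on simulated data. For each gene, the brightest probe over all arrays was used. Of the 68 probes, 55 matched a RefSeq accession, all 55 under the same symbol. Probe coordinates come from the files (build mm9), and promoters are RefSeq windows of GRCm38.p6. The number of arrays limits the precision, and replicates are kidneys of separate mice. A gene below that level on all arrays of a genotype has only a bound, and no fold is given where that bound is under 1.

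The cell cycle genes, the further lists, and the tests were chosen with earlier results of these data known. Genes named are the 36, Selenbp1, and those of 119 further genes (118 found; Sgol2 had no probe of that name) that passed, or the largest difference of a list where none passed. Other inhibitors were named after their values were seen. Lists of 51 cell type markers were read beside them (50 found). The alternatives were quantile normalization, median scaling, normexp correction (offset 50), the authors' table, 3 other filters, keeping flagged spots, trend and robust options of limma, the methods' t-test, slide row or replicate number as a block, each array left out, and averaging all probes of each gene. No sample was left out. Other measurements of the study were not used here.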

Additional observations from a re-analysis of the deposited data

How the results depend on the processing

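Aurka, Cdkn1a, Fen1, and Lin9 kept their direction in every alternative. The median difference of the 36 genes did not. It changed from −0.09 to 0.11 with normexp correction and 0.090 with the slide row as a block, and leaving out an array gave −0.15 (without Selenbp1-KO replicate 3) to 0.032 (without WT replicate 2). These 3 changes of sign were larger than the SD between replicates of the median of the 36 genes on an array, 0.12.

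The share of all genes that passed is given after each count. Cell cycle genes that passed were 3 (1 higher, 2 lower) with quantile normalization (9.12%) and with the authors' table (9.10%), 3 (2 higher) with median scaling (26.3%), 5 (4 higher) with normexp (11.9%), and 2 (both lower; 10.4%) of 23 when only probes well above background on all arrays of a genotype were kept. They were 4 (1 higher, 3 lower) with trend and robust options (14.1%), 0 with the methods' t-test (7.73%), 3 (1 higher, 2 lower) with slide row as a block (6.07%), 8 (7 higher) with the replicate block (33.1%), and 2 (1 higher) with the mean of all probes (9.01%). Leaving out an array gave 1 to 7 (0 to 4 higher, 0 to 3 lower), the 7 without WT replicate 4, when 31.4% of all genes passed. Without any other array, 3.52% to 6.65% of all genes passed. Probes that passed numbered 4479, and 14616 with median scaling, 2841 with the filter, 7536 with trend and robust options, 18430 with the replicate block, and 2022 to 17183 when an array was left out. Of genes that passed, 85.9% were higher, against 57.7% with quantile normalization, 59.2% in the authors' table, 95.1% with median scaling, 95.4% with normexp, and 40.3% with slide row as a block. Of the 118 further cell cycle genes, 12 passed with quantile normalization and with the authors' table. There were 8 with median scaling, 8 with trend and robust options, and 11 with the t-test. The replicate block gave 11, the mean of all probes 8, and leaving out an array 2 to 11. The shares of all genes given above apply to these counts too. The causes were not tested.

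Of the 46 named genes, these took the other sign. With quantile normalization Bub1 was −0.061, Kif11 −0.0042, Nusap1 −0.0036, Prc1 −0.011, and Ccne2 −0.080, and in the authors' table Bub1 was −0.061, Kif11 −0.0042, Nusap1 −0.0033, Prc1 −0.012, and Ccne2 −0.079. With median scaling Nusap1 was −0.0068 and Prc1 −0.0061. With normexp E2f1 was 0.0093, Foxm1 0.040, Mki67 0.035, Top2a 0.11, Ccnb1 0.13, Aurkb 0.22, Bub1b 0.11, Cdc20 0.0048, Kif20a 0.16, Tpx2 0.18, and Cenph 0.058. With slide row as a block E2f1 was 0.26, Mcm2 0.24, Mcm5 0.19, Mcm7 0.0050, Rrm2 0.072, Tyms −0.023, Mki67 0.23, Top2a 0.73, Ccnb2 0.15, Bub1b 0.48, Cdc20 0.11, Cenpe 0.0082, Kif23 −0.20, Tpx2 0.37, and Ckap2l −0.044. With the mean of all probes Foxm1 was 0.057, Mcm7 0.13, Tyms −0.024, Top2a 0.26, Ccna2 −0.33, Ccnb1 0.19, and Aurkb 0.20.

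Genotypes share replicate numbers 2 and 3 alone, with correlations of 0.175 and 0.195 between same-numbered mice. Differently numbered mice had correlations from −0.325 (WT replicate 3 with Selenbp1-KO replicate 2) to 0.203 (WT replicate 3 with Selenbp1-KO replicate 1). The same-numbered values lay within that range, and 2 pairs are too few to take the numbers for a pairing. With the replicate block Ccna2 was −0.055, Aurkb 0.53, Bub1b 0.0082, Kif20a 0.041, and Prc1 −0.041.

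With 1 array left out, differences ranged from −0.27 to 0.062 for E2f1, −0.18 to 0.042 for Mcm2, −0.64 to 0.035 for Mcm5, −0.18 to 0.029 for Mcm7, −0.13 to 0.056 for Rrm2, −0.47 to 0.016 for Mki67, −0.77 to 0.31 for Top2a, −0.065 to 0.13 for Ccna2, −0.40 to 0.76 for Cdk1, −0.41 to 0.40 for Aurkb, −0.24 to 0.34 for Bub1b, −0.25 to 0.080 for Cdc20, −0.21 to 0.014 for Birc5, −0.34 to 0.042 for Kif20a, −0.036 to 0.32 for Kif23, −0.44 to 0.019 for Tpx2, −0.045 to 0.088 for Nusap1, −0.15 to 0.17 for Prc1, and −0.077 to 0.38 for Ccne2. Apart from Cenph under normexp, the genes that changed sign had not passed as reported. Of 853 values of named genes under an alternative, 690 kept direction and side of the criterion. Dim signal limits what can be said of the 15 cell cycle genes that were not well above background on every array.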
